A study of Mus musculus with 9 samples.

Results

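The constitutive proteasome genes are described here across mouse CD8 T cells activated without a compound, with D-2HG or with L-2HG. Members were the protein-coding symbols that start with Psma, Psmb, Psmc or Psmd followed by a digit, without the interferon-inducible Psmb8, Psmb9 and Psmb10. The rule found 37 of 55011 gene symbols, 8 Psma, 8 Psmb, 7 Psmc and 14 Psmd, after 5 pseudogenes were left out. It chose genes by name and used no measured value. Of the 37, 31 encode subunits of the standard particle. The others are Psma8, a testis form of an alpha subunit, Psmb11, a thymus form of a catalytic subunit, the assembly chaperones Psmd5, Psmd9 and Psmd10, and Psmc3ip, a meiotic recombination factor that shares only its name prefix.

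The proteasome degrades proteins tagged with ubiquitin. Its core is a barrel of alpha (Psma) and beta (Psmb) rings that hides the protease sites, and its regulatory cap carries a ring of ATPases (Psmc) that unfold substrates and non-ATPase subunits (Psmd) that bind and remove ubiquitin. T cells raise protein synthesis and turnover on activation, and the core also supplies peptides for display by MHC class I.

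The cells were wild-type splenic naive CD8 T cells of mice, stimulated through CD3 and CD28 by antibodies fixed to the plate at 4 µg/mL and collected after 6 h. Control cells received no compound, and for the other groups D-2HG at 20 mM, or L-2HG at the same dose, was present from the start of stimulation, with 3 libraries in each group. The compounds are enantiomers of 2-hydroxyglutarate, of which tumours with mutant isocitrate dehydrogenase make the D form. All groups, control included, were activated, and no unstimulated cells were measured. Labels do not say whether the 3 libraries of a group are separate mice or cultures. The p-values below therefore reflect only how far these libraries spread, which may be technical.

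Promoters of 5 members are shown because these genes stand for the patterns described below. Sequences are RefSeq windows upstream of the start on GRCm38.p6, 5′ to 3′ on the gene's strand, without bases that GENCODE places inside the gene. Psmb5 and Psmb6 encode catalytic subunits and Psmc1 an ATPase, and all were lower with at least 1 compound. Psmd2 and Psmd11 encode cap subunits that did not pass the test in any comparison. Capitals mark matches on either strand to TGACNNNGC, the core of the antioxidant response element that Nfe2l1 also binds, in Psmb5 and Psmb6, to CCAAT in Psmc1, and to CCGGAAG, an ETS-type motif, in Psmd2 and Psmd11.
Psmb5, chr14:54618023-54618245, minus strand: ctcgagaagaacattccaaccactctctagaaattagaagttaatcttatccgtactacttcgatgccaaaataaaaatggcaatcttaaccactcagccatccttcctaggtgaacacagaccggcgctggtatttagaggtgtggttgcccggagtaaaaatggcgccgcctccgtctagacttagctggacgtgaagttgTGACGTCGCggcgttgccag
Psmb6, chr11:70525107-70525356, plus strand: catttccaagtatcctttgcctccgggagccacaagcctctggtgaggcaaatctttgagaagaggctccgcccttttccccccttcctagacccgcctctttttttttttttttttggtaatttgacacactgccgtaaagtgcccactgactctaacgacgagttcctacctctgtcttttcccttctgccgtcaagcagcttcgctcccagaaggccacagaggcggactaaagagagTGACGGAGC
Psmc1, chr12:100109952-100110153, plus strand: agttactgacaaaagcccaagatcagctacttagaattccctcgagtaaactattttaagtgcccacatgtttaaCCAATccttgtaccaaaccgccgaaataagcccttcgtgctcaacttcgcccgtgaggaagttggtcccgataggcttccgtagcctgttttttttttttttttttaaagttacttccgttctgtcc
Psmd2, chr16:20651402-20651651, plus strand: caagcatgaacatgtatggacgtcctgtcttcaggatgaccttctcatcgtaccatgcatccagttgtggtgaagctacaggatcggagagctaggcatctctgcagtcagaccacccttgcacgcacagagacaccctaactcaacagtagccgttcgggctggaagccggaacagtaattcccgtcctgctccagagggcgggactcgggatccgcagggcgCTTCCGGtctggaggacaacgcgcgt
Psmd11, chr11:80428365-80428614, plus strand: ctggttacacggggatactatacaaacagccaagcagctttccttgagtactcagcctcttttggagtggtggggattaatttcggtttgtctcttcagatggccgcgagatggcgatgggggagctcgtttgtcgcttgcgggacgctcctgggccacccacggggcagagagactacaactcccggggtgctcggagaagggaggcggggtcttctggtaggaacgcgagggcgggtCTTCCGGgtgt

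RefSeq windows of 250 upstream bases were found for 30 of the 37 members, and both strands were searched. Psma8, Psmb1, Psmb2, Psmb7, Psmc3, Psmd3 and Psmd7 had no entry. TGACNNNGC was present in 5 members (16.7%), which were Psmb5, Psmb6, Psmc6, Psmd9 and Psmd12, and in 11.5% of all 27025 genes with a window. CCAAT was present in 13 members (43.3%) and in 37.5% of all genes. CCGGAAG was present in 10 members (33.3%) and in 7.83% of all genes. These included Psma6, Psmc1, Psmc2, Psmc6, Psmd4, Psmd6 and Psmd12, which fell with at least 1 compound. The others were Psmc3ip, Psmd2 and Psmd11, which were not called in either comparison with control. Of the 35 tested members, 10 were called with neither compound. Matches of different motifs overlapped in 0 cases in the members' windows. The CCGGAAG match of Psmc1 lies 28 bases before the RefSeq start, among the 48 bases that GENCODE places inside the gene, and is therefore not in the sequence shown. A match describes letters, not binding.

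Libraries held 562627 to 5731885 counts, the fewest in L-2HG replicate 2. All 6 CD8 T cell markers were detected in every library, at a sum of 2189 to 4805 CPM (counts scaled to a common library total, with TMM factors), whereas the CD4, NK, neutrophil and erythroid lists, of 2 markers each, summed to at most 7.27 CPM. Ighm was the 1 B cell marker found in every library, and its list summed to 312, 171 and 246 CPM in control replicates 1, 2 and 3, 131 to 132 with D-2HG and 128 to 192 with L-2HG. The 4 dendritic cell markers summed to 14.5 to 23.2 CPM in controls, 22.7 to 38.8 with D-2HG and 23.7 to 31.4 with L-2HG, and the 4 macrophage and monocyte markers to 4.11 to 9.51 CPM in any library. Libraries also differed in ways that bear on the comparisons. The predicted satellite-like genes Gm10800 and Gm10801 took 0.91% to 5.35% of counts in controls, 3.79% to 17.1% with D-2HG and 6.71% to 24.5% with L-2HG, and control replicate 2 had the highest share among controls. Mitochondrial transcripts took 2.23% to 3.06%, 0.992% to 1.88% and 1.19% to 1.83%, and control replicate 2 had the lowest share among controls.

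All 31 genes of standard subunits passed the count filter in these activated cells. The 37 members together took 1.52% ± 0.23 (SD, n = 3) of all counts in control libraries, 1.14% ± 0.13 with D-2HG and 0.989% ± 0.239 with L-2HG. Per kb of the principal transcript, Psma7 had the highest mean level of the 31 standard subunits in controls, 1193 ± 307 CPM per kb, followed by the catalytic Psmb6 at 920 ± 241 and the beta ring gene Psmb2 at 828 ± 240. The SDs of these neighbours overlap, and they hold differences between libraries that all members share. Psma7 was highest in all 9 libraries. Psmd3, a scaffold of the cap's lid, was lowest in 8 of 9, with 21.7 to 67.7 CPM per kb in those 8 libraries, and in L-2HG replicate 2 Psmb7 was lowest at 71.5. Psma8 had 0 to 6 counts and Psmb11 0 to 5 counts in any library. Both stayed below the count filter, so 35 members were tested.

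The summed level of the members was 19238, 12147 and 16644 CPM in control replicates 1, 2 and 3. It was 11500, 11720 and 10962 CPM with D-2HG, and 9788, 8072 and 11708 CPM with L-2HG. Every library with a compound lay below every control, but control replicate 2 was only slightly above the highest of them. The alpha ring sum was 4715 ± 1219 CPM (SD, n = 3) in controls, 3071 ± 186 with D-2HG and 2837 ± 604 with L-2HG, and the sum of the Psmc genes, Psmc3ip included, was 2974 ± 730, 2105 ± 43.7 and 1708 ± 335 CPM. Markers of CD8 T cells showed the same order among controls, at 4805, 2917 and 3929 CPM, and summed to 2419 to 2785 CPM with D-2HG and 2189 to 3193 CPM with L-2HG. Fewer cells of a type and less RNA per cell cannot be told apart in such bulk samples. The part of satellite-like, mitochondrial and marker shares in the lower sums was not tested by these values.

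**Figure D1:**
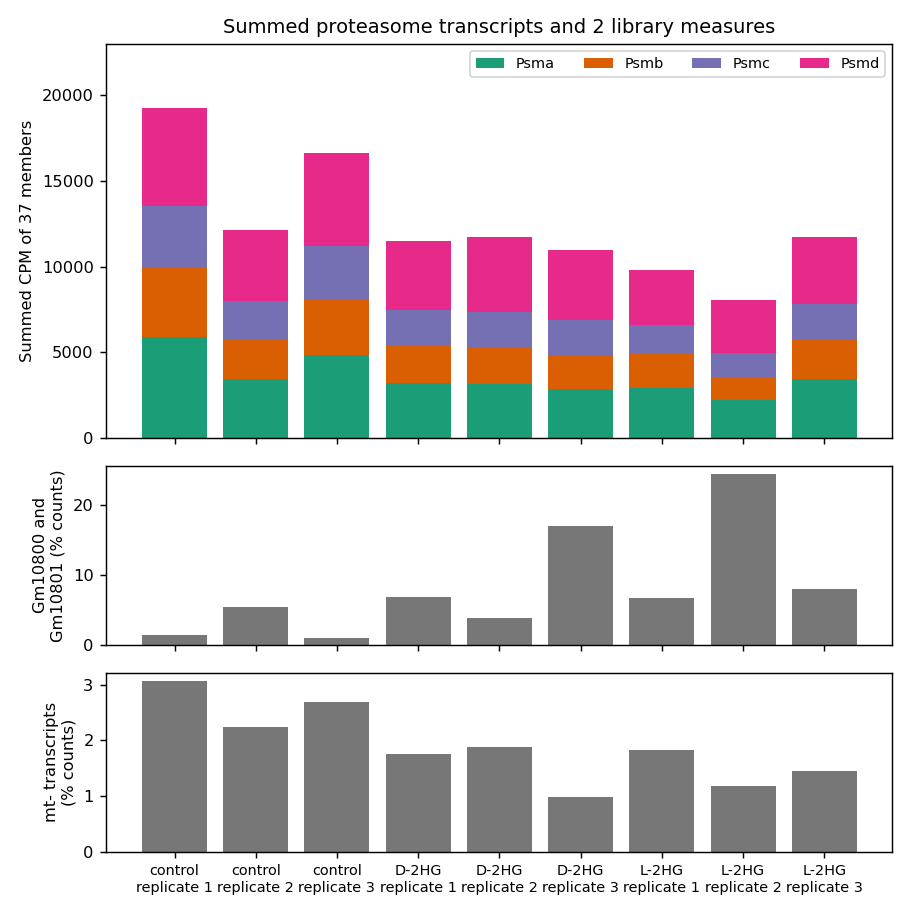
Stacked bars give the summed CPM of the 37 members by family in each of the 9 libraries, above bars for the percent of counts in Gm10800 and Gm10801 and in mitochondrial transcripts. Control replicates 1 and 3 stand highest at 19238 and 16644 CPM, and control replicate 2, at 12147 CPM with a satellite-like share of 5.35%, stands near the libraries with a compound.

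With D-2HG, 12 of 35 members were lower than in control cells and 0 were higher, by edgeR's quasi-likelihood test with Benjamini-Hochberg adjustment over 10235 genes (adjusted p under 0.05), where 10.5% of all genes were lower and 11.8% higher. Called were 4 of 7 tested Psma genes, 3 of 7 Psmb, 1 of 7 Psmc and 4 of 14 Psmd genes. For Psmc, 1 of 7 is close to the share of all genes, though all 7 values were negative (median -0.50). The 12 were Psma1, Psma4, Psma6, Psma7, Psmb1, Psmb4, Psmb6, Psmc1, Psmd6, Psmd8, Psmd10 and Psmd14. The median log2 fold change of the 35 was -0.55, from -0.88 to 0.09, beside 0.04 over all tested genes. In 16 members all D-2HG libraries lay below all controls, as in 19.3% of all genes. The count of 12 became 0 without control replicate 1, control replicate 3 or D-2HG replicate 3, 1 without D-2HG replicate 1 or 2, 5 without L-2HG replicate 1, and 30 without control replicate 2. With the satellite-like share as a covariate it was 0, and without the 3 libraries of highest satellite-like share, 1 from each group, it was 30.

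With L-2HG, 24 of 35 members were lower and 0 higher by the same edgeR test, where 8.30% of all genes were lower and 9.41% higher. The 24 were 6 of 7 tested Psma genes, 6 of 7 Psmb, 6 of 7 Psmc and 6 of 14 Psmd genes. The median log2 fold change was -0.68, from -1.05 to 0.04, beside 0.05 over all genes, and 17 members had no overlap between groups, as had 14.8% of all genes in that direction. The count of 24 was 0 without control replicate 3, 1 without control replicate 1, 2 without L-2HG replicate 1, 8 without L-2HG replicate 2 and 32 without control replicate 2. It was 0 with the satellite-like share as a covariate, 1 when only control and L-2HG libraries were fitted, and 34 without the 3 libraries of highest satellite-like share. Both comparisons use the same 3 controls.

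**Figure D2:**
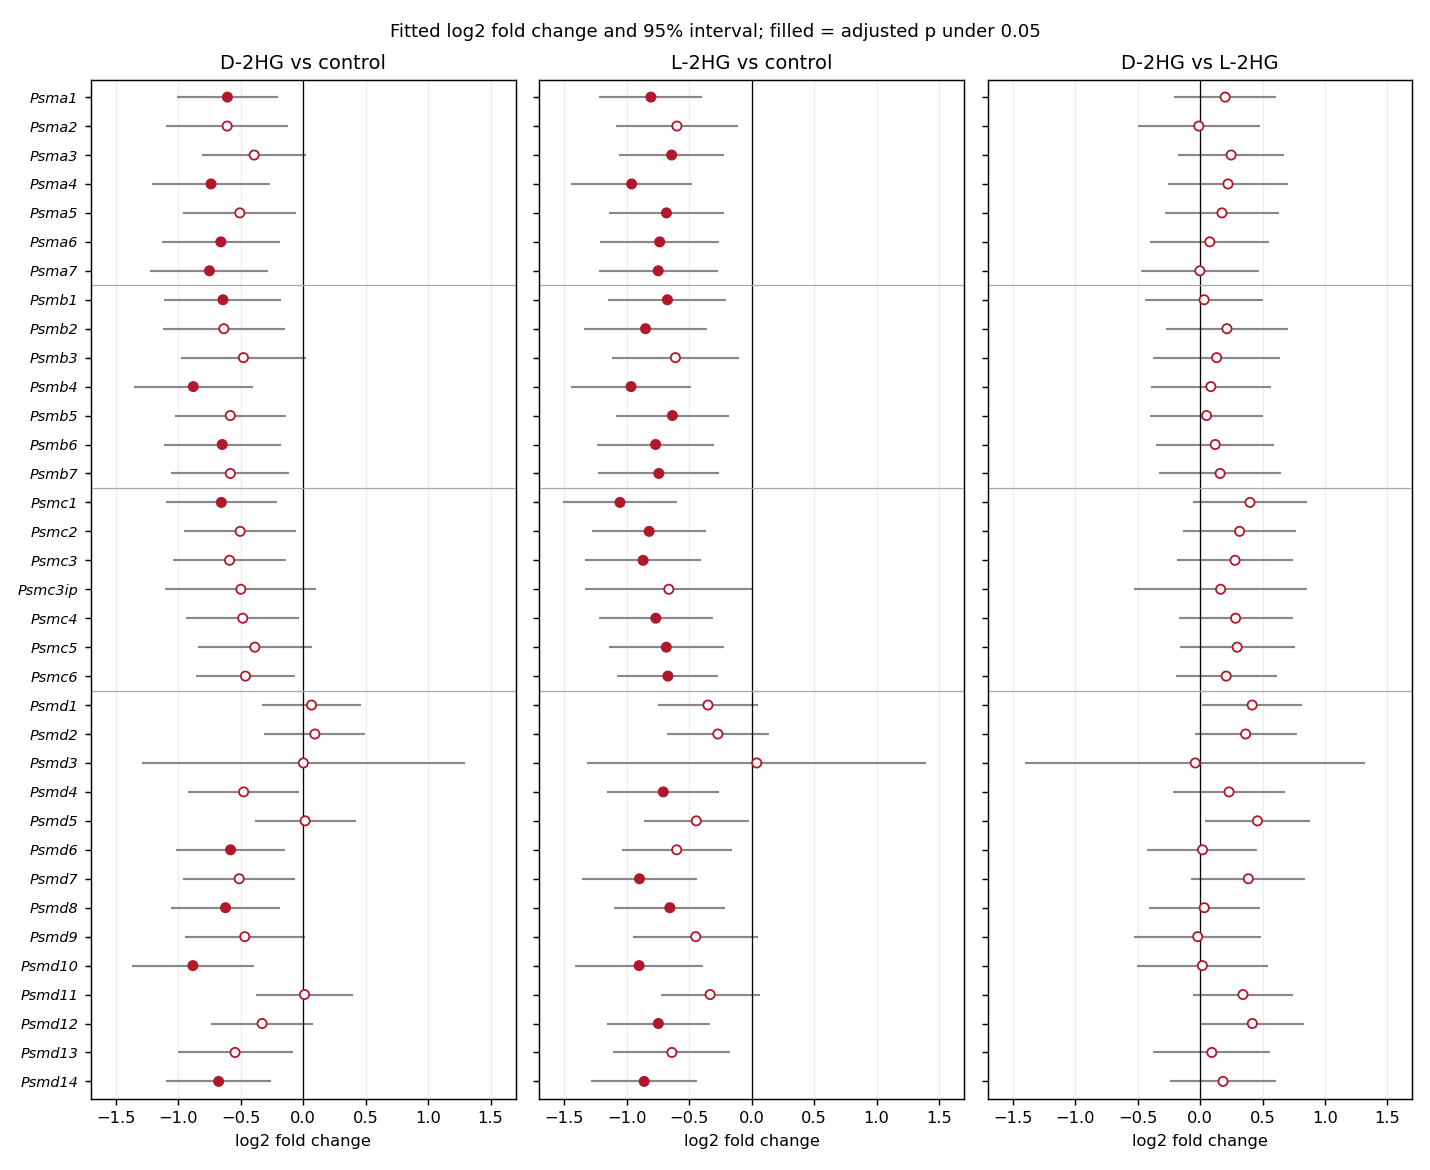
Points give the log2 fold change of each of the 35 tested members, grouped by family, and lines its 95% interval in each of the 3 comparisons, and filled points passed at adjusted p under 0.05. Filled points number 12 with D-2HG, 24 with L-2HG and 0 between the compounds, and Psmd1, Psmd2, Psmd3, Psmd5 and Psmd11 lie near 0 with D-2HG.

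Of the 7 tested genes of the alpha ring, which gates entry to the core, 4 fell with D-2HG and 6 with L-2HG. Over all genes 10.5% and 8.30% were lower, and 0 of the 7 differed between the compounds past the threshold. Psma1 (chr7:114264606-114276118, mm10) was at 909, 628 and 757 CPM in control replicates 1, 2 and 3, at 498, 514 and 496 CPM with D-2HG, and at 435, 371 and 501 CPM with L-2HG. All controls lay above all libraries with a compound. Its log2 fold change was -0.61 (SE 0.20, adjusted p = 0.033) with D-2HG and -0.81 (SE 0.20, adjusted p = 0.016) with L-2HG in edgeR's test. Psma4 (chr9:54950790-54958030), whose product has a tail that helps close the gate, was at 526, 271 and 431 CPM in controls, 257, 264 and 216 CPM with D-2HG, and 202, 168 and 255 CPM with L-2HG. Neither compound's libraries overlapped the controls, but control replicate 2 was only slightly above the highest D-2HG library. It fell by 0.74 and 0.96 log2 units (edgeR adjusted p = 0.028 and 0.015). Psma7 (chr2:180036374-180042433), the most abundant alpha gene per kb, was at 1346, 790 and 1136 CPM in controls, 714, 658 and 572 CPM with D-2HG, and 650, 486 and 803 CPM with L-2HG. L-2HG replicate 3 exceeded control replicate 2, and the log2 fold changes were -0.75 and -0.75 (edgeR adjusted p = 0.026 and 0.033). Psma3 (chr12:70974621-70996347) had 668, 435 and 530 CPM in controls, 428, 404 and 413 CPM with D-2HG and 382, 278 and 380 CPM with L-2HG. It fell with L-2HG, by 0.64 log2 units (edgeR adjusted p = 0.038), while with D-2HG the change was -0.39 (edgeR adjusted p = 0.15). Psma6 fell with both compounds, Psma5 fell with L-2HG, and Psma2 was called in neither. Psma2 and Psma3 overlap other genes, AW209491 and 3110056K07Rik, and counting by strand is not stated, so reads of the overlap cannot be assigned.

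Of the 3 catalytic beta genes, 1 fell with D-2HG and all 3 fell with L-2HG, beside 10.5% and 8.30% of all genes. Between the compounds 0 of the 7 tested Psmb genes differed past the threshold. Psmb5 (chr14:54614119-54618022), the chymotrypsin-like site, was at 389, 223 and 325 CPM in controls, 218, 215 and 193 CPM with D-2HG, and 205, 156 and 236 CPM with L-2HG. D-2HG libraries lay below all controls, by little for control replicate 2, and L-2HG libraries overlapped the controls. Its log2 fold change was -0.58 (edgeR adjusted p = 0.054) with D-2HG and -0.64 (edgeR adjusted p = 0.049) with L-2HG. Psmb6 (chr11:70525367-70527858), the caspase-like site, was at 920, 536 and 747 CPM in controls, 490, 465 and 451 CPM with D-2HG, and 449, 306 and 527 CPM with L-2HG. No library with a compound reached the controls, and it fell by 0.65 with D-2HG and 0.77 with L-2HG log2 units (edgeR adjusted p = 0.044 and 0.030). Psmb7 (chr2:38588036-38644087), the trypsin-like site, was at 234, 129 and 208 CPM in controls, 134, 137 and 110 CPM with D-2HG, and 121, 82.9 and 131 CPM with L-2HG. Here control replicate 2 lay inside both compound ranges, and the log2 fold changes were -0.58 (edgeR adjusted p = 0.066) and -0.74 (edgeR adjusted p = 0.037).

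Among the beta genes without a protease site, Psmb4 (chr3:94884093-94886961), which closes the ring at the end of assembly, had the lowest adjusted p of the members with D-2HG. It was at 489, 296 and 371 CPM in controls, 225, 215 and 187 CPM with D-2HG, and 222, 126 and 232 CPM with L-2HG. All controls were above the other libraries. It fell by 0.88 (SE 0.23, adjusted p = 0.014) with D-2HG and by 0.97 (SE 0.23, adjusted p = 0.015) with L-2HG on the log2 scale in edgeR's test. Without control replicate 1 or 3 neither call held, and the D-2HG call was also lost without D-2HG replicate 3. Psmb2 (chr4:126677630-126709714) was at 910, 499 and 727 CPM in controls, 459, 441 and 475 CPM with D-2HG, and 417, 266 and 490 CPM with L-2HG. Control replicate 2 was the lowest control and still above all compound libraries. It fell with L-2HG, by 0.85 log2 units (edgeR adjusted p = 0.024), and had a log2 fold change of -0.64 with D-2HG (edgeR adjusted p = 0.055). Psmb1 fell with both compounds, and Psmb3 passed in neither comparison.

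All 6 ATPases of the cap's ring fell with L-2HG and 1 of them, Psmc1, with D-2HG, beside 8.30% and 10.5% of all genes. The D-2HG values of all 7 Psmc genes were negative, however. Between the compounds 0 of the 7 differed past the threshold (edgeR's lowest adjusted p = 0.77). Psmc1 (chr12:100110154-100123405), whose tail helps open the core's gate, was at 443, 256 and 400 CPM in controls, 259, 243 and 196 CPM with D-2HG, and 161, 166 and 202 CPM with L-2HG. The L-2HG libraries were below every control, and D-2HG replicate 1 was above control replicate 2. With L-2HG it fell by 1.05 log2 units (SE 0.22, edgeR adjusted p = 0.0091), the largest change of any member with L-2HG, and this call held in 8 of 9 fits that each left out 1 library, with an adjusted p of 0.067 without control replicate 3. With D-2HG it fell by 0.66 (SE 0.21, edgeR adjusted p = 0.035), a call that held in 3 of the 9 fits. Psmc2 (chr5:21785283-21803787) was at 674, 386 and 538 CPM in controls, 363, 383 and 381 CPM with D-2HG, and 286, 245 and 369 CPM with L-2HG. Its lowest control was only slightly above the highest D-2HG library. Psmc3 (chr2:91054009-91066369), which overlaps Slc39a13 on the other strand, was at 580, 306 and 483 CPM in controls, 309, 304 and 297 CPM with D-2HG, and 235, 211 and 298 CPM with L-2HG. The L-2HG log2 fold changes of Psmc2 and Psmc3 were -0.82 and -0.87 (edgeR adjusted p = 0.020 and 0.019), and their D-2HG values were -0.51 and -0.59 (edgeR adjusted p = 0.089 and 0.056). Psmc3ip, which is no ATPase, had the lowest level of the tested members and was called in neither comparison.

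In the non-ATPase part of the cap, the ubiquitin-removing enzyme Psmd14 (chr2:61711694-61800376) fell with both compounds. It was at 781, 498 and 630 CPM in controls, 400, 415 and 379 CPM with D-2HG, and 333, 302 and 412 CPM with L-2HG. Each library with a compound lay below each control. The log2 fold change was -0.68 (SE 0.20, adjusted p = 0.025) with D-2HG and -0.86 (SE 0.20, adjusted p = 0.015) with L-2HG in edgeR's test. Psmd7 (chr8:107580381-107588464), its partner in the lid, was at 657, 373 and 553 CPM in controls, 383, 384 and 343 CPM with D-2HG, and 276, 225 and 342 CPM with L-2HG. D-2HG replicates 1 and 2 were above control replicate 2, and no L-2HG library was. It fell with L-2HG, by 0.90 log2 units (edgeR adjusted p = 0.016), and its D-2HG value was -0.51 (edgeR adjusted p = 0.087). Psmd10 (chrX:140948429-140956728), or gankyrin, a chaperone of ATPase assembly, was at 83.1, 51.4 and 84.9 CPM in controls, 42.3, 39.5 and 37.9 CPM with D-2HG, and 42.4, 25.7 and 44.2 CPM with L-2HG. Neither compound's libraries overlapped the controls, and Psmd10 fell by 0.88 and 0.90 log2 units (edgeR adjusted p = 0.016 and 0.022). Psmd8 fell with both, and Psmd12 with L-2HG. Psmd6 was called with D-2HG only, at the edge of the threshold. Its log2 fold change was -0.58 with D-2HG (edgeR adjusted p = 0.04997) and -0.60 with L-2HG (edgeR adjusted p = 0.053).

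Of the ubiquitin receptors of the cap, Psmd4 fell with L-2HG and Psmd2 passed the test in no comparison. Adrm1, a receptor that the naming rule leaves out, fell with L-2HG (log2 fold change -0.58, edgeR adjusted p = 0.047) and had a value of -0.07 with D-2HG. Psmd4 (chr3:95032694-95042614) was at 462, 285 and 421 CPM in controls, 260, 291 and 289 CPM with D-2HG, and 221, 192 and 297 CPM with L-2HG. Control replicate 2 lay within both compound ranges, and Psmd4 fell with L-2HG, by 0.71 log2 units (edgeR adjusted p = 0.033), with a D-2HG value of -0.48 (edgeR adjusted p = 0.10). Psmd2 (chr16:20651652-20663414), a large scaffold of the base that also binds ubiquitin-like domains, was at 458, 580 and 637 CPM in controls, 550, 639 and 597 CPM with D-2HG, and 444, 405 and 534 CPM with L-2HG. Groups overlapped, and its log2 fold changes were 0.09 (95% interval -0.31 to 0.50) and -0.27 (-0.68 to 0.14). Psmd1 (chr1:86064387-86139151), the other large base scaffold, was at 574, 603 and 707 CPM in controls, 633, 708 and 631 CPM with D-2HG, and 421, 478 and 579 CPM with L-2HG. Its intervals were -0.33 to 0.46 with D-2HG and -0.75 to 0.05 with L-2HG, and the control libraries did not show the low replicate 2 seen in the core genes. The chaperone Psmd5 (chr2:34849734-34874968) was at 156, 116 and 127 CPM in controls, 124, 141 and 139 CPM with D-2HG and 85.5, 94.8 and 113 CPM with L-2HG. The L-2HG libraries lay just below the controls, with a log2 fold change of -0.44 (edgeR adjusted p = 0.12), beside 0.01 with D-2HG (edgeR adjusted p = 0.96). Psmd3 (chr11:98682554-98695979) was at 79.1, 106 and 125 CPM in controls, 98.0, 68.5 and 145 CPM with D-2HG, and 59.6, 249 and 46.6 CPM with L-2HG. L-2HG replicate 2, the library of fewest counts, was above all others, and without it the L-2HG log2 fold change went from 0.04 to -0.97 (edgeR adjusted p = 0.042). Psmd9, Psmd11 and Psmd13 were called in neither comparison.

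**Figure D3:**
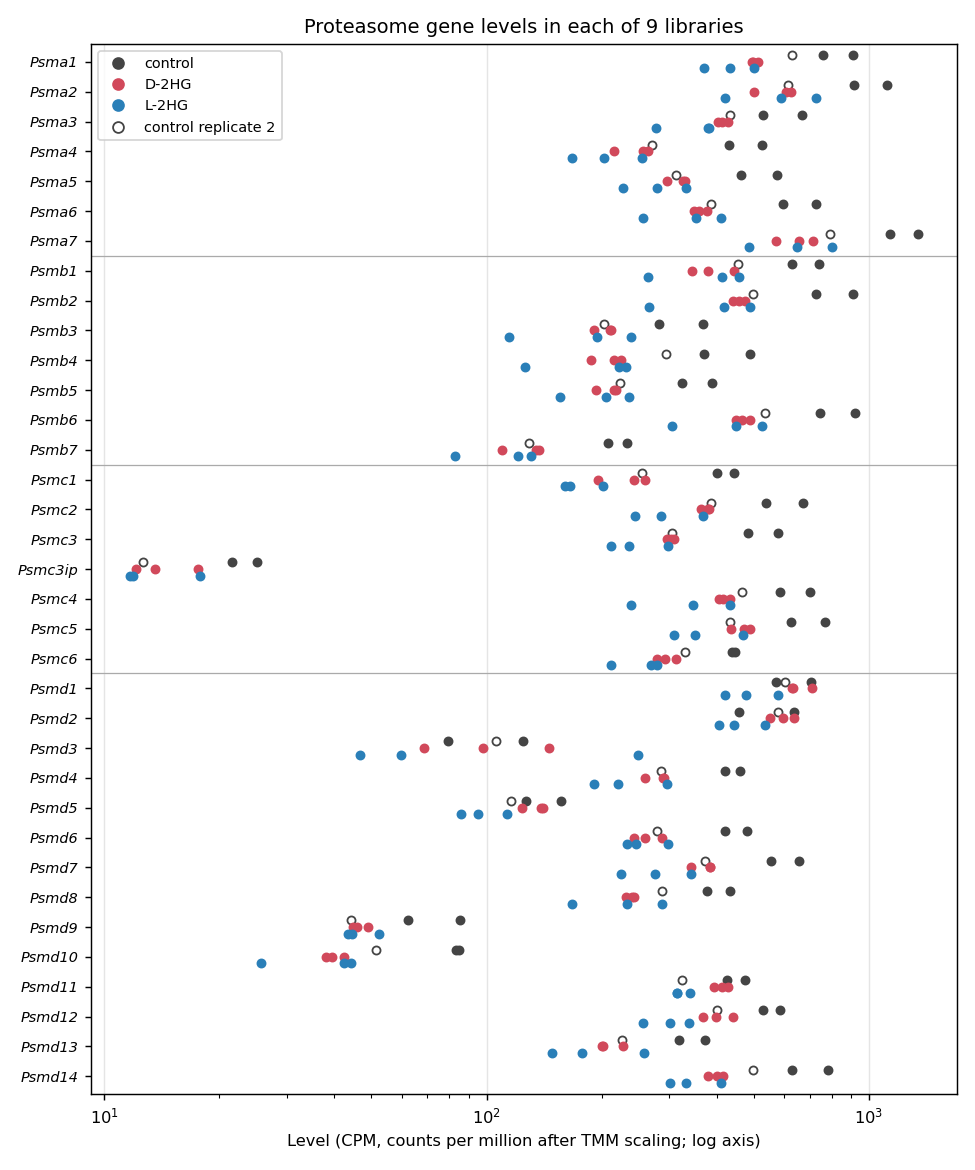
Points give the CPM of each tested member in each of the 9 libraries on a log axis, coloured by group, with control replicate 2 as an open circle. For most core and ATPase genes the open circle lies near the D-2HG and L-2HG points and apart from control replicates 1 and 3, as for Psma4 at 271 CPM against 526 and 431.

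Control replicate 2 received no compound and was the lowest control in 32 of 35 members (91.4%), against 41.6% of all genes. Its median log2 difference from control replicates 1 and 3 was -0.64 over the members and 0.01 over all genes. This is of the size of the median change with either compound. Compared with control replicate 2 alone, all D-2HG libraries were lower in 16 members (45.7%, all genes 31.0%) and all L-2HG libraries in 19 (54.3%, all genes 24.8%). The median ratio of group mean to control replicate 2 was 0.941 with D-2HG and 0.816 with L-2HG. No member called in the fit of all 9 libraries kept its call in every fit that left out 1 library, in either comparison with control.

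Changes were larger in the members with shorter transcripts, with overlap between the lengths. The 26 with a principal transcript under 2000 bp had a median log2 fold change of -0.59 with D-2HG and -0.75 with L-2HG, and 12 and 22 of them were lower (46.2% and 84.6%). Over all 2420 tested genes of that length, the medians were -0.50 and -0.47, and 27.7% and 20.7% were lower. Of the 6844 longer genes, 5.26% and 4.73% were lower, with medians of 0.24 and 0.23. The 9 longer members had medians of 0.00 and -0.44, with 0 and 2 of them lower (0% and 22.2%). Of these 9, Psmd1, Psmd2, Psmd3, Psmd5 and Psmd11 lay between 0.00 and 0.09 with D-2HG, and Psma2, Psma3, Psmc6 and Psmd9 had values of -0.61, -0.39, -0.46 and -0.47, within or near the range of the shorter members, -0.88 to -0.33. Control replicate 2 differed from the other controls by medians of -0.67 and -0.42 in the shorter and longer members, and of -0.49 and 0.20 over all genes of those lengths. Across genes, which share libraries and are not independent, the correlation of log2 transcript length with the D-2HG log2 fold change was 0.67 (Pearson) and 0.59 (Spearman) over 35 members, and 0.52 and 0.59 over 9264 genes. For L-2HG it was 0.54 and 0.48 over the members, and 0.52 and 0.58 over all genes. With coding length the members' values were 0.73 and 0.53 for D-2HG, and 0.45 and 0.19 for L-2HG. The part of length in the members' changes was not tested apart from these values.

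**Figure D4:**
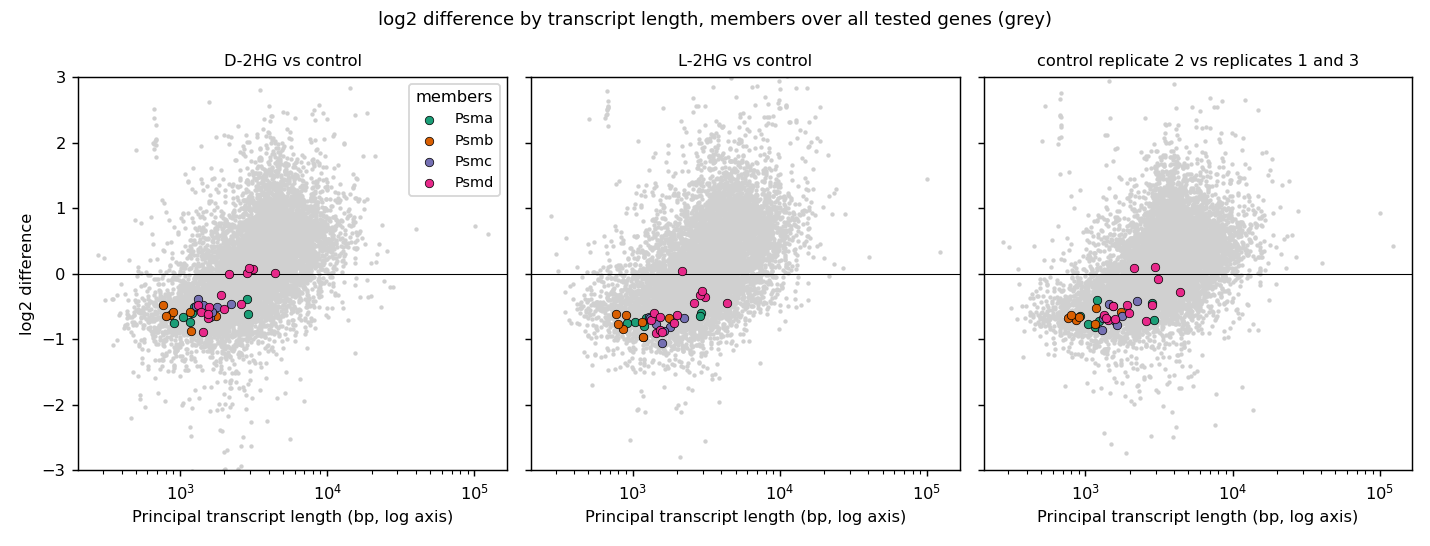
Each panel plots a log2 difference against principal transcript length in bp on a log axis, with members coloured by family over all tested genes in grey (genes beyond 3 in either direction are not drawn). Members under 2000 bp lie below 0 in all panels, also for control replicate 2, and the D-2HG median of the 9 longer members is 0.00.

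D-2HG and L-2HG, which differ only in the configuration at 1 carbon, were compared at the same dose and time as the single pair of compounds. No member differed between them past the threshold (0 of 35; edgeR's lowest adjusted p = 0.68), where 0.254% of all genes were lower and 0.0489% higher with D-2HG. At an unadjusted p under 0.05, edgeR gave 3 of 35 members, Psmd1, Psmd5 and Psmd12, all higher with D-2HG. Over all 10235 genes it gave 713, of which 251 were higher with D-2HG. After adjustment, DESeq2 and limma-voom also called 0 members. The median difference was 0.18 log2 units, from -0.04 to 0.46, beside 0.01 over all genes. For Psmd5 the difference was 0.46 (95% interval 0.04 to 0.88), for Psmd1 0.42 (0.02 to 0.82), for Psmb6 0.12 (-0.35 to 0.59) and for Psma7 0.00 (-0.48 to 0.47). D-2HG libraries lay above all L-2HG libraries in 7 members, Psma3, Psmd1, Psmd2, Psmd5, Psmd7, Psmd11 and Psmd12, as in 7.77% of all genes. Intervals had a median half-width of 0.46, so these values do not show that the compounds act alike.

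Each catalytic subunit has an interferon-inducible counterpart that replaces it in the immunoproteasome, and their ratio within a library does not depend on scaling. Transcript lengths differ within the pairs. Psmb5, Psmb6 and Psmb7 have 899, 798 and 1160 bp, and Psmb8, Psmb9 and Psmb10 have 1628, 1352 and 1311 bp. The part of length in the ratios was not tested. In L-2HG replicate 2 the ratios rest on few counts, 17 for Psmb9 and 14 for Psmb10. The log2 ratio of Psmb6 to Psmb9 per kb was 4.18, 4.03 and 4.22 in controls, 5.09, 5.58 and 5.64 in D-2HG libraries, and 3.98, 3.95 and 3.92 in L-2HG libraries. All D-2HG libraries were above all controls, and all L-2HG libraries were below them, though by little. Group means differed by 1.30 for D-2HG against control, -0.19 for L-2HG against control and 1.49 for D-2HG against L-2HG. For Psmb5 to Psmb8 the values were 0.92, 0.96 and 0.92 in controls, 1.11, 1.07 and 0.86 in D-2HG libraries, and 0.46, 0.28 and 0.24 in L-2HG libraries. L-2HG libraries were below the others, by 0.61 on average against control, and D-2HG overlapped the controls. For Psmb7 to Psmb10 the group means were 2.16 ± 0.09 (SD, n = 3) in controls, 2.27 ± 0.43 with D-2HG and 1.75 ± 0.12 with L-2HG, and only the L-2HG libraries lay apart. On the Psmb6 to Psmb9 ratio control replicate 2 was the lowest control, nearer the highest L-2HG library than the other controls. On the other ratios it was close to control replicate 3, at 0.96 beside 0.92 and at 2.10 beside 2.11. In exact two-sided permutation tests of 3 against 3 libraries the smallest possible p is 0.1; 7 of the 9 comparisons reached it (exact permutation p = 0.1, adjusted 0.13), and D-2HG against control did not for Psmb5 to Psmb8 (exact p = 0.4) and Psmb7 to Psmb10 (exact p = 1).

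**Figure D5:**
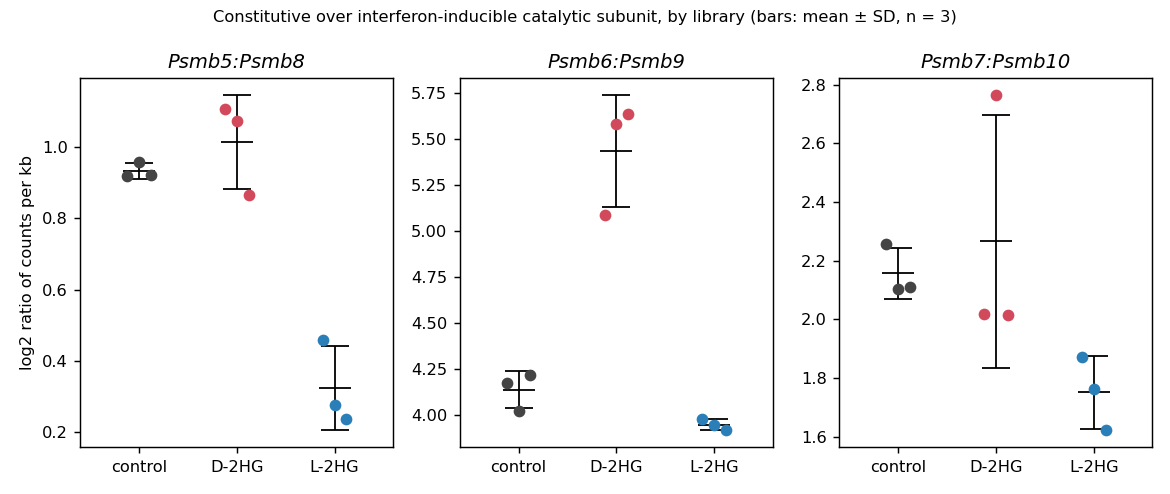
Points give the log2 ratio of counts per kb of each catalytic gene to its interferon-inducible counterpart in each library, and bars the mean ± SD of 3 libraries. For Psmb6 to Psmb9 the D-2HG libraries lie between 5.09 and 5.64, above the controls, and for Psmb5 to Psmb8 the L-2HG libraries lie between 0.24 and 0.46, below the controls.

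The numerator and the denominator moved unequally. Psmb9 (chr17:34181987-34187764) was at 86.2, 55.7 and 68.0 CPM in controls, 24.4, 16.4 and 15.4 CPM with D-2HG, and 48.2, 33.6 and 59.0 CPM with L-2HG. D-2HG libraries lay below all others, and Psmb9 fell with D-2HG, with a log2 fold change of -1.905 and SE of 0.26 (adjusted p = 0.00014 in edgeR), a call that held in all 19 alternatives, with the satellite-like share as covariate at -1.57 (edgeR adjusted p = 0.0045). It overlaps Tap1 on the other strand. Psmb8 was at 373, 208 and 311 CPM in controls, 183, 185 and 192 CPM with D-2HG, and 270, 233 and 363 CPM with L-2HG. It fell with D-2HG, by 0.67 (edgeR adjusted p = 0.036), and had a log2 fold change of -0.03 with L-2HG (95% interval -0.49 to 0.43), while Psmb10 was called in neither comparison with control.

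Other genes of the pathway were taken as a list of 40, all tested, which holds the 3 interferon-inducible subunits, activators, assembly factors, ubiquitin genes and shuttles. With D-2HG 9 of 40 were lower and 4 higher, where 10.5% of all genes were lower and 11.8% higher, and with L-2HG 12 were lower and 2 higher, where the shares were 8.30% and 9.41%. The medians were -0.26 and -0.49. These calls also depended on single libraries: with L-2HG 0 genes were lower without control replicate 1 or 3, 1 without L-2HG replicate 1, 4 without L-2HG replicate 2, 7 without D-2HG replicate 1 and 19 without control replicate 2. With D-2HG 3 were lower without control replicate 1, control replicate 3, D-2HG replicate 1 or D-2HG replicate 3, 4 without D-2HG replicate 2, and 17 without control replicate 2. With the satellite-like share as covariate 1 was lower with D-2HG and 0 with L-2HG, and when only control and L-2HG libraries were fitted 1 was lower. The 4 higher with D-2HG became 1 without control replicate 1 or 3 or D-2HG replicate 1 or 2, and 0 without D-2HG replicate 3. The 2 higher with L-2HG became 0 without control replicate 1 or 3, D-2HG replicate 1, or L-2HG replicate 1 or 2. Without control replicate 2 the higher counts were 7 and 3, and with the covariate both were 0. Assembly factors of the core fell with both compounds: Pomp, its maturation factor, and Psmg1, Psmg2, Psmg3 and Psmg4, which guide ring assembly. Pomp fell by 0.80 and 0.77 and Psmg4 by 1.37 and 1.22 on the log2 scale. Among the assembly chaperones that are members, Psmd10 fell with both compounds, and Psmd5 and Psmd9 were called in neither comparison. Psme1, a subunit of the interferon-inducible activator, fell by 1.03 with D-2HG (edgeR adjusted p = 0.0051) and 0.86 with L-2HG (edgeR adjusted p = 0.016). Psme2, of the same activator, was called with neither compound, and its libraries overlapped the controls. Its log2 fold changes were -0.69 and -0.63 (edgeR adjusted p = 0.051 and 0.078). Psme3, the nuclear activator, fell with L-2HG by 0.70. The polyubiquitin gene Ubb fell with L-2HG, by 0.96 log2 units (edgeR adjusted p = 0.020). Ddi2, the protease that activates Nfe2l1, rose with D-2HG by 0.96 (edgeR adjusted p = 0.0086), and the ligase Ube3c rose with both, by 0.74 and 0.86. Midn was the other gene higher with L-2HG, by 1.08 (edgeR adjusted p = 0.042). Nfe2l1 itself, the transcription factor known to raise proteasome genes when activity is short, was at 52.3 to 78.0 CPM in controls, 66.7 to 84.0 with D-2HG and 49.95 to 58.1 with L-2HG. Its log2 fold changes were 0.23 (95% interval -0.21 to 0.67) and -0.21 (-0.67 to 0.25). Vcp, which extracts substrates for the proteasome, and the cap deubiquitinase Usp14 were not called in any comparison. Principal transcripts of Pomp and Psmg1 to Psmg4 have 555 to 1579 bp. Those of Ddi2, Ube3c, Psme4 and Ubqln4, the 4 genes higher with D-2HG, have 9553, 5048, 6491 and 3330 bp. The part of length in the changes of this list was not tested.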

How the data were processed

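Polyadenylated RNA of splenic CD8 T cells was measured in 9 libraries, 3 in each of 3 groups, and per the labels' protocols the cDNA was amplified and tagmented. Counts, as deposited, are whole reads per gene symbol, made with STAR 2.7.3a and featureCounts on mm10, per the submitters' processing notes, and annotation and strand setting are not given in the sources used here. A second deposited table holds signal values, which are these counts divided by a size factor per library, and its counts came back within 6.56e-05 of whole numbers. It served only for identifiers and biotypes, and Psmd10 has more than 1 identifier there. PCR copies carry no molecular identifiers.

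The analysis of counts used edgeR 4.0.16 under R 4.3.3 (TMM, filterByExpr with a minimum count of 10, robust quasi-likelihood fit of all 9 libraries, 6 residual degrees of freedom, biological coefficient of variation 0.210), with limma 3.58.1 and DESeq2 1.42.0 as alternatives. Adjusted p-values are Benjamini-Hochberg values over 10235 genes, with a threshold of 0.05, and intervals are 95% intervals of single genes. Ratios were tested by exact permutation (scipy 1.17.1). Totals of 562627 to 5731885 counts set the precision, and replicates differed by more than counting error (chi-square per degree of freedom 6.07 to 42.3). Lengths came from the principal transcripts of GENCODE M21, and promoters from RefSeq (GRCm38.p6).

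Members and lists were chosen with earlier results of these data known, so no list was tested as a whole. Values in every library are given for the 2 members of each family with the smallest adjusted p in each comparison, the catalytic subunits, Psmd14, Psmd2, Psmd4 and the members with the highest fold change. The 19 alternatives changed scaling, filter, test, covariates or libraries. The last, leaving out the 3 libraries of highest satellite-like share, was chosen after seeing the data. Steps were tested on counts simulated for D-2HG against control. Of 100 genes changed 2-fold, 35% were recovered at the threshold, and of 100 changed 1.5-fold, 6% were. No other genes were changed there, whereas 2278 of 10235 passed in the data, so the adjustment was stricter in the simulation. These rates therefore do not carry over to the members. Members that did not pass can still have changed. Intervals of the 35 tested members had a median half-width of 0.45 log2 units with D-2HG and 0.46 with L-2HG.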

Additional observations from a re-analysis of the deposited data

Results flagged for a closer look

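A test of the difference between the compounds passed for 2 genes of the pathway list and for 0 of the members. Psmb9, the interferon-inducible counterpart of Psmb6, was lower with D-2HG than with L-2HG, with a log2 difference of -1.38 (edgeR adjusted p = 0.020) and no overlap of the libraries. Its adjusted p rose to between 0.14 and 0.24 without D-2HG replicate 2 or 3 or L-2HG replicate 1 or 3. Zfand2a, which encodes a proteasome-associated zinc finger protein of the stress response, was at 25.5, 24.2 and 23.9 CPM with D-2HG, 10.2, 5.92 and 9.04 CPM with L-2HG, and 15.6, 17.4 and 19.0 CPM in controls. The log2 difference between the compounds was 1.42 (edgeR adjusted p = 0.030), and the 3 groups did not overlap. This call was lost without any 1 of the 6 libraries with a compound, at adjusted p from 0.060 to 0.19 in edgeR. Zfand2a fell with L-2HG, by 0.93 log2 units (edgeR adjusted p = 0.037), a call lost in 6 of 9 fits that left out 1 library (edgeR adjusted p from 0.053 to 0.13), without TMM (0.084), with only the compared groups (0.093) and with the satellite-like share as covariate (0.62). Its D-2HG value against control was 0.50 (edgeR adjusted p = 0.14).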

How the results depend on the processing

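The median log2 fold change of the members stayed negative against control under all 19 alternatives, from -0.74 to -0.17 with D-2HG and from -0.98 to -0.30 with L-2HG, and between compounds it ran from 0.11 to 0.37. Counts of called members did not stay. With D-2HG the 12 became 30 with limma-voom and quality weights, 2 on library totals without TMM, 4 without a count filter, 0 with the satellite-like share as covariate, 30 without the 3 libraries of highest share, and 0 to 30 when 1 library was left out. With L-2HG the 24 became 8 without TMM, 15 at a mean count of at least 50, 1 when only the compared groups were fitted, 0 with the covariate, and 0 to 32 when 1 library was left out. The cause of these moves was not tested. Between compounds 0 members were called in all 19. Over all genes, the 2278 called with D-2HG became 5617 (limma-voom), 1341 (no filter), 96 (covariate), 4493 (3 libraries left out) and 384 to 4257 (1 left out). The 1812 with L-2HG became 5180, 1195 (mean count of 50), 427 (only the compared groups), 8 (covariate), 4379 and 65 to 4108. The 31 between compounds became 49 (DESeq2), 177 (limma-voom), 76 (covariate), 165 and 10 to 60. The share of called genes that were higher was 52.9% with D-2HG and 53.2% with L-2HG, beside 41.0% and 31.7% in DESeq2, 39.6% and 31.0% without a filter, and 70.0% and 77.7% without TMM, which moved the median of all genes to 0.10 and 0.15. Psmd3 with L-2HG ran from -0.97 (without L-2HG replicate 2) to 0.39 (without L-2HG replicate 3) when 1 library was left out and turned to -0.98 without the 3 libraries. The Psmb6 to Psmb9 difference of L-2HG was -0.30 with a pseudocount of 5. Deviations from group means correlated from -0.17 to 0.27 between same-numbered libraries and from -0.29 to 0.27 between others. These values cannot decide whether replicate numbers pair the libraries, which the labels do not say. A replicate block gave 12 and 28 members called against control and 0 between compounds. Low counts of L-2HG replicate 2 limit precision for weakly expressed members.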
